A study of Mus musculus with 16 samples.

Results

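The KMT2 genes encode the enzymes that place methyl groups on lysine 4 of histone H3, and their complexes share a core of small subunits. The 10 genes described here are Kmt2a, Kmt2b, Kmt2c, Kmt2d, Setd1a, Wdr5, Ash2l, Rbbp5, Dpy30 and Kdm6a, out of 46983 genes listed in the count table. The family was chosen by a measured value, the opposite directions of Kmt2d in the cytoplasm and on polysomes after RAM siRNA. The values of Kmt2d in those contrasts are therefore given as a description without a test. All 10 genes passed the filter on low counts, which left 12805 genes.

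RNA was sequenced from 46C mouse embryonic stem cells (ESCs), a 129Ola line that carries GFP at the Sox1 locus and was grown with LIF. Cells were harvested 48 hr after transfection with siRNA against RAM (gene Ramac), the activating subunit of the mRNA cap methyltransferase RNMT, or with a non-targeting control siRNA. Each culture gave 1 library from its cytoplasmic extract (input) and 1 from sucrose gradient fractions 17 to 22, pooled as polysomes, both made from cycloheximide-treated cells. There were 4 replicates in each of the 4 groups, made on separate occasions, and 16 libraries in all. All groups share a single cell line and transient transfection, so the RAM siRNA cells are a population with lowered RAM and not a deletion. The study names a single RAM siRNA for these occasions. Effects of that siRNA on other targets cannot be told apart from those of lowered RAM.

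Libraries held 16647523 to 20147833 counts. Ramac had 197 to 206 counts in control input and 46 to 58 in RAM siRNA input, and 122 to 256 against 5 to 45 in polysomes, so the target was low in every library labelled RAM siRNA. All 8 ESC markers examined had a mean of at least 1 CPM (counts relative to library size, scaled by the TMM method) in every group, with a summed level of 4624 to 4949 CPM in control input and 3858 to 4454 CPM in RAM siRNA input. Of 6 neural markers, 5 reached 1 CPM, with a sum of 75.0 to 85.6 CPM in control and 81.4 to 94.2 CPM in RAM siRNA input, and none of 4 trophoblast markers did. Among the neural markers Nes was at 27.7 ± 4.73 and 37.3 ± 5.77 CPM and Pax6 at 12.4 ± 1.53 and 8.78 ± 1.98 CPM (SD, n = 4) in control and RAM siRNA input. The summed level of 4 endoderm markers was 3.60 to 4.90 CPM in control and 5.57 to 6.85 CPM in RAM siRNA input, and that of 4 fibroblast markers 5.23 to 6.50 and 6.87 to 9.22 CPM, without overlap. That of 4 mesoderm markers was 13.5 to 16.1 CPM in control and 11.5 to 15.3 CPM in RAM siRNA input, with overlap. The part of these shifts in the results was not tested. In bulk libraries fewer cells of a type and less RNA per cell cannot be told apart, which applies to every difference below.

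KMT2 enzymes work in large complexes whose core subunits WDR5, RBBP5, ASH2L and DPY30 hold and activate the catalytic SET domain. KMT2A (MLL1) and KMT2B (MLL2) act mainly at promoters, KMT2C (MLL3) and KMT2D (MLL4) place H3K4 monomethylation at enhancers, and SETD1A contributes to trimethylation at active promoters. KDM6A (UTX) travels with KMT2C and KMT2D and removes methyl groups from lysine 27 of histone H3, a Polycomb mark.

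The catalytic subunits are encoded by long transcripts and the core subunits mostly by short ones. In GRCm38 with the GENCODE M21 annotation, Kmt2d (ENSMUSG00000048154) lies on the minus strand of chromosome 15 from 98831669 to 98871204 and has 19931 bases of exons. Kmt2c has 20291 bases of exons (chromosome 5, 25271798 to 25498783, minus strand) and Kmt2a has 16670 (chromosome 9, 44803355 to 44881296, minus strand). The other enzymes are Kmt2b with 9596 bases (chromosome 7, 30568858 to 30588726, minus strand) and Setd1a with 6795 bases (chromosome 7, 127776670 to 127800122, plus strand). Among the core subunits, Dpy30 is the shortest gene product with 1146 exon bases (chromosome 17, 74299474 to 74323944, minus strand). Wdr5 has 3596 bases (chromosome 2, 27515157 to 27536535, plus strand), Rbbp5 3930 (chromosome 1, 132477365 to 132505659, plus strand) and Ash2l 8969 (chromosome 8, 25815996 to 25847694, minus strand). Kdm6a has 8383 bases (chromosome X, 18162575 to 18279936, plus strand).

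The values of Setd1a are uncertain. It shares 51.8% of its exon bases with the same-strand gene Gm49388, which had 0 counts in all 16 libraries, and reads in the shared part may not have been counted for either gene. Kmt2a, Kmt2c and Setd1a also overlap short stretches of genes on the opposite strand, by 378, 274 and 29 exon bases, and the strand setting of the counting is not given in the sources used here.

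Per kilobase of exons, the core subunits were above the enzymes in control input. Dpy30 had 159 CPM per kb, Wdr5 60.8, Ash2l 34.6 and Rbbp5 27.3 (means of 4 libraries). The next were Kdm6a with 8.82, Kmt2b with 7.32 and Kmt2a with 5.45 CPM per kb, and the lowest were Kmt2c with 3.20, Kmt2d with 2.39 and Setd1a with 1.81. The 4 core subunits did not overlap with each other or with any enzyme. Ranges of neighbours overlapped for Kdm6a and Kmt2b, Kmt2b and Kmt2a, Kmt2c and Kmt2d, and Kmt2d and Setd1a, so their order is not resolved by these libraries. With the longest annotated transcript in place of all exons, Ash2l had 83.9 and Wdr5 75.7 CPM per kb, so the order of this pair turns with the length used.

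**Figure D1:**
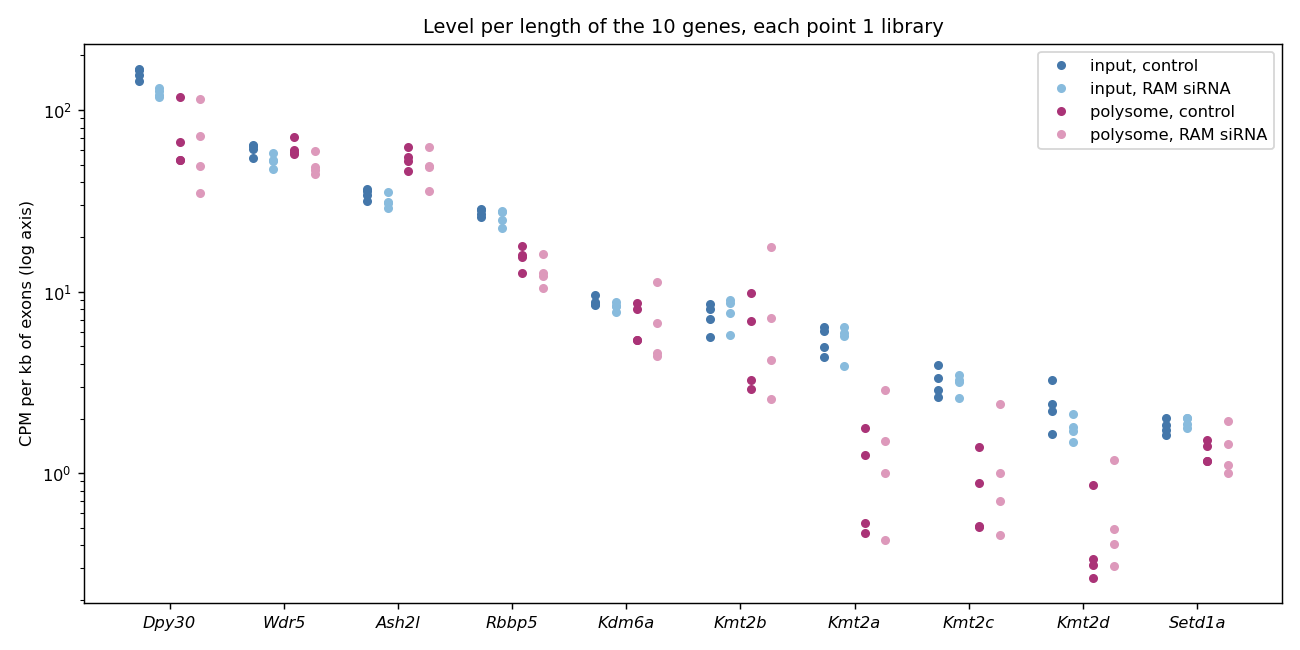
Level of the 10 genes per kilobase of exons (CPM per kb, log axis), each point 1 library and each colour 1 of the 4 groups of fraction and siRNA. The core subunits Dpy30, Wdr5, Ash2l and Rbbp5 lie above the enzymes in input, and the polysome points of Kmt2a, Kmt2c and Kmt2d lie below their input points.

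The enzyme that chose the family is described first. Kmt2d had 48.0, 32.9, 65.2 and 44.0 CPM in control input (replicates 1 to 4; 47.5 ± 13.4, SD, n = 4) and 29.6, 34.1, 42.0 and 35.6 CPM with RAM siRNA (35.4 ± 5.12, SD, n = 4). The RAM siRNA mean was 74.4% of the control mean, with a fitted log2 fold change of -0.43 (standard error, SE, 0.17). The groups overlapped, and 3 of 4 same-numbered pairs were lower with RAM siRNA, with ratios of 0.617, 0.644 and 0.810, while replicate 2 gave 1.04.

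On polysomes Kmt2d was a low-count gene. It had 5.31, 17.1, 6.71 and 6.20 CPM in control polysomes (8.83 ± 5.55, SD, n = 4; 98 to 323 counts) and 8.08, 23.6, 9.81 and 6.11 CPM in RAM siRNA polysomes (11.9 ± 7.95, SD, n = 4; 103 to 412 counts). The replicate 2 library was the highest of both groups, and the groups overlapped. The RAM siRNA mean was 135% of the control mean, with pair ratios of 1.52, 1.38, 1.46 and 0.986 and a fitted log2 fold change of 0.47 (SE 0.49).

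Fitted without a factor for the replicate, the direction on polysomes turned with 1 library. Without the RAM siRNA polysome library of replicate 2 the log2 fold change of Kmt2d was -0.07, and without the control polysome library of replicate 2 it was larger, at 1.01. Each of these fits kept the other polysome library of replicate 2, the replicate that was highest in both groups. The same-numbered pair ratios were above 1 in replicates 1 to 3. With the replicate number as a factor in the fit (a replicate block) the log2 fold change of Kmt2d was 0.46 on polysomes and -0.41 in input. The fitted change in polysomes less that in input was 0.86 (SE 0.55) without the block. Without the RAM siRNA or the control polysome library of replicate 2 it was 0.28 or 1.40. No SE given for Kmt2d in these contrasts is a test, since its values there chose the family. Fitted values below 0 in input and above 0 in polysomes were held by 2029 of 12805 genes (15.8%).

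**Figure D2:**
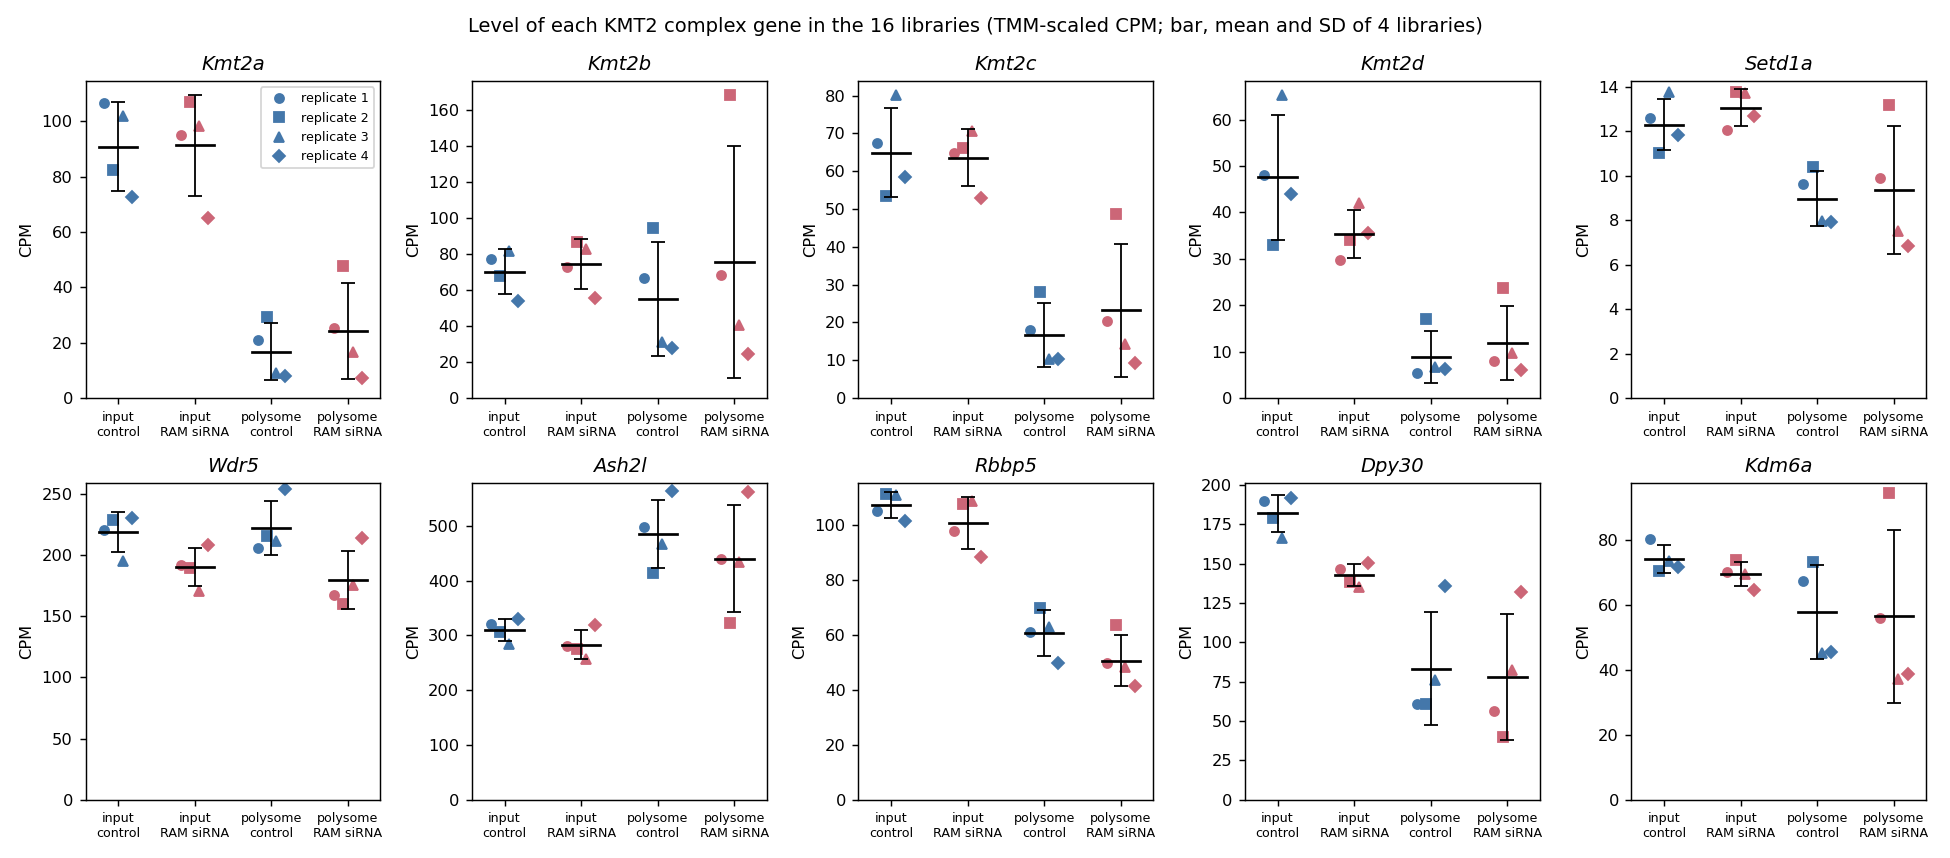
Level of each gene in the 16 libraries, in TMM-scaled CPM on axes that start at 0, with 1 panel per gene, 1 symbol per replicate number and bars for the mean and SD of 4 libraries. Replicate 2 (squares) is the highest polysome library of Kmt2a, Kmt2b, Kmt2c, Kmt2d, Setd1a, Rbbp5 and Kdm6a in both siRNA groups, and the RAM siRNA input values of Dpy30 all lie below the control input values.

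Levels after RAM siRNA were next compared in input for the other 9 genes, in the cytoplasmic RNA that serves as the measure of transcript abundance. Without the replicate block Dpy30, which dimerizes and binds ASH2L, was the only one of the 9 past the threshold. With the block Wdr5 and Ash2l passed too, as given below. Across all genes 5.94% were lower and 6.95% higher without the block, 12.9% in either direction. The median log2 fold change was -0.09 over the 10 genes, -0.09 over the 9 without Kmt2d and 0.00 over all genes tested.

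Dpy30 had 190, 179, 167 and 192 CPM in control input (182 ± 11.7, SD, n = 4) and 147, 139, 135 and 151 CPM with RAM siRNA (143 ± 7.11, SD, n = 4). All RAM siRNA libraries lay below all control libraries, and the 4 pair ratios were close to each other, from 0.772 to 0.812. Its log2 fold change was -0.35 (SE 0.07; edgeR quasi-likelihood test, Benjamini-Hochberg adjusted p = 0.00793). It was the only one of the 10 genes whose groups did not overlap in input, against 18.0% of all genes tested.

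The 3 other core subunits were also lower in all 4 same-numbered pairs, by less. Such a pattern was held by 4 of the 10 genes and by 24.6% of all genes tested. Wdr5, the WD40 propeller that docks the enzymes, had 221, 229, 195 and 230 CPM in control input and 192, 190, 171 and 208 CPM in RAM siRNA input. The ranges overlapped through control replicate 3, and the log2 fold change of -0.20 (SE 0.08) did not pass without the block (edgeR, adjusted p = 0.119) but did with it (adjusted p = 0.000597). Without the RAM siRNA input library of replicate 4 it also passed (log2 fold change -0.25, edgeR, adjusted p = 0.0360).

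Ash2l, whose protein together with RBBP5 activates the SET domain, had 321, 307, 284 and 330 CPM in control input and 280, 276, 258 and 319 CPM in RAM siRNA input. The groups overlapped, and its log2 fold change was -0.14 (SE 0.08; edgeR, adjusted p = 0.313, and 0.0138 with the replicate block). Rbbp5 was at 102 to 111 CPM in control and 88.5 to 109 CPM in RAM siRNA input, with a log2 fold change of -0.09 that did not pass in either fit (edgeR, adjusted p = 0.493, and 0.0949 with the block). With the block, 3 of the 9 genes were lower and none higher, all of them core subunits, where 19.0% of all genes were lower and 20.3% higher.

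Kmt2a, Kmt2b, Kmt2c and Setd1a, the enzymes tested, showed no detectable change in input. Kmt2a was at 72.8 to 107 CPM in control and 65.2 to 107 CPM in RAM siRNA input, with a log2 fold change of 0.00 (SE 0.15; edgeR, adjusted p = 0.990), and values between -0.09 and 0.14 when any 1 library was left out. Kmt2b had 0.08 (SE 0.15), Kmt2c -0.03 (SE 0.12) and Setd1a 0.08 (SE 0.10), with adjusted p of 0.766, 0.897 and 0.629 (edgeR). Kmt2b turned to -0.03 without control input replicate 4, and Kmt2c to 0.05 without RAM siRNA input replicate 4 and 0.08 without control input replicate 3. The demethylase gene Kdm6a had a log2 fold change of -0.09 (SE 0.07; edgeR, adjusted p = 0.439), with overlapping groups, both within 64.6 to 80.2 CPM.

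**Figure D3:**
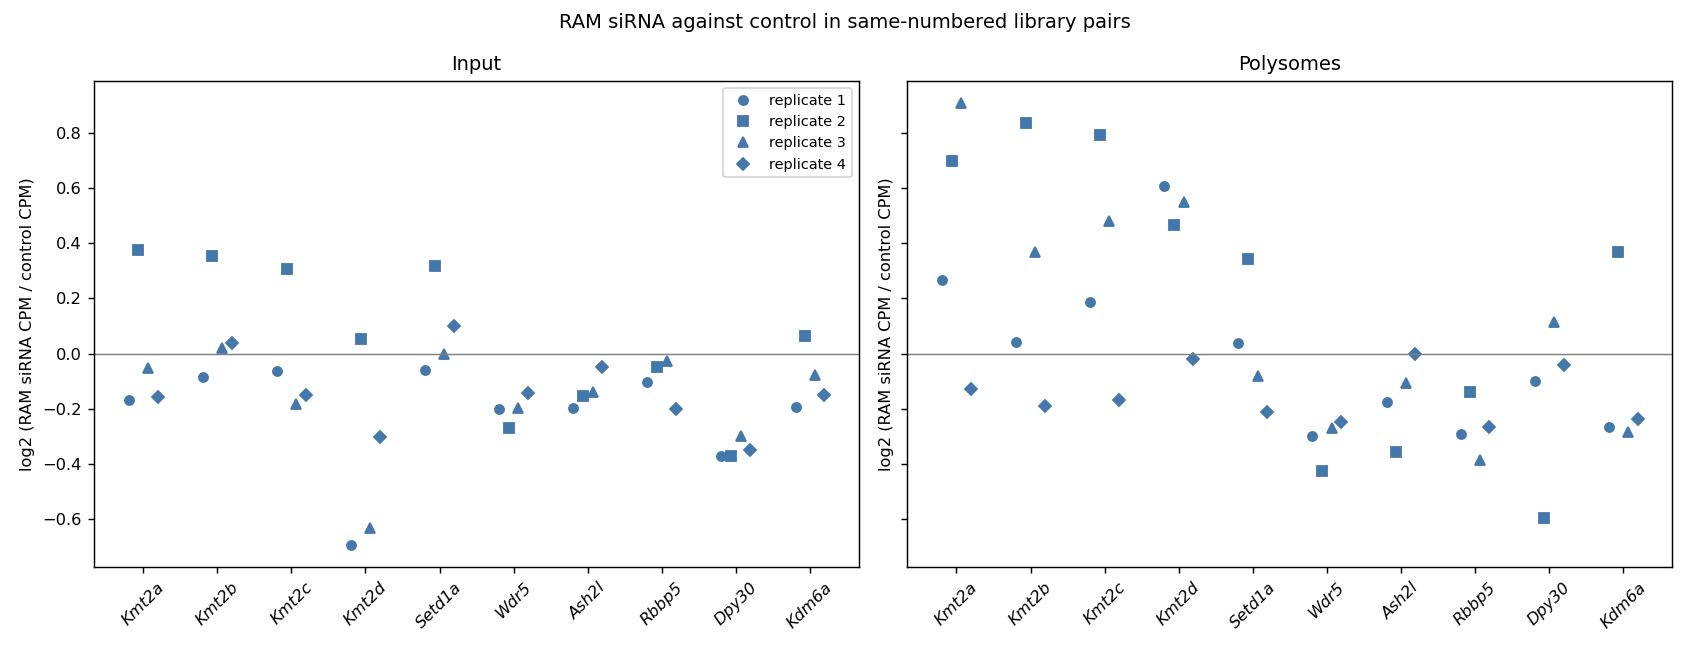
Log2 ratio of RAM siRNA to control CPM in each same-numbered pair of libraries, for input (left) and polysomes (right), with 1 symbol per replicate and a line at 0. In input the 4 points of Wdr5, Ash2l, Rbbp5 and Dpy30 all lie below 0, and in polysomes the pairs of Kmt2a, Kmt2b, Kmt2c and Kmt2d are above 0 in replicates 1 to 3 and below 0 in replicate 4.

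On polysomes, none of the 9 genes passed the threshold without the replicate block by edgeR or by DESeq2, and 0 had an unadjusted p under 0.05 by edgeR. With the block 4 of the 9 had one, against 3610 of 12805 genes. All genes tested gave 3 lower and 0 higher by edgeR's quasi-likelihood test (0.0234%), with 1152 at an unadjusted p under 0.05, and DESeq2 called 300. No gene of the family had groups that did not overlap, against 6.56% of all genes. Control polysome libraries differed widely for the long enzymes, with an SD of log2 CPM of 0.90 for Kmt2a, 0.84 for Kmt2b, 0.68 for Kmt2c and 0.73 for Kmt2d, where the median of all genes was 0.262.

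Kmt2a had 20.9, 29.4, 8.91 and 7.79 CPM in control polysomes (16.8 ± 10.3, SD, n = 4) and 25.1, 47.7, 16.7 and 7.12 CPM in RAM siRNA polysomes (24.2 ± 17.3, SD, n = 4). Its RAM siRNA library was higher in 3 of 4 pairs, and the spread between replicates was larger than the difference within any pair except that of replicate 2. The log2 fold change was 0.57 (SE 0.57; edgeR, adjusted p = 0.925). With the block it was 0.51 (SE 0.15; edgeR, adjusted p = 0.0311), the 1 call among the 9 genes, where 9.68% of all genes were called higher and 4.97% lower. Without the RAM siRNA polysome library of replicate 2 and without the block, the log2 fold change was 0.03.

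Kmt2b and Kmt2c had the same shape over the libraries as Kmt2a. Kmt2b was at 66.4, 94.2, 31.2 and 28.0 CPM in control and 68.3, 168, 40.3 and 24.6 CPM in RAM siRNA polysomes, so replicate 2 stood highest in both groups. Its log2 fold change was 0.49 (SE 0.58; edgeR, adjusted p = 0.948). It turned to -0.24 without RAM siRNA replicate 2, in a fit without the block that kept control replicate 2. Kmt2c was at 17.9, 28.1, 10.3 and 10.4 CPM in control and 20.4, 48.7, 14.3 and 9.25 CPM in RAM siRNA polysomes, with a log2 fold change of 0.51 (SE 0.50; edgeR, adjusted p = 0.924) that turned to -0.12 without the same library.

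All genes of similar length were set beside these values. Over the 726 tested genes with at least 12 kb of exons, the median log2 ratio of RAM siRNA to control in polysomes was -0.10, 0.33, -0.04 and -0.14 in replicates 1 to 4. In the 8 to 12 kb class, which holds Kmt2b, it was -0.11, 0.19, -0.09 and -0.12. The class medians were above 0 in replicate 2 alone. Kmt2a, Kmt2b, Kmt2c and Kmt2d were above 0 in replicates 1 to 3, with Kmt2b at a ratio of 1.03 in replicate 1. The direction of Kmt2d chose the family, and how many single genes of each class were above 0 was not counted. These signs are a description, and the part of length in them was not tested. With a length offset in the fit, chosen after seeing the data, Kmt2d had a polysome log2 fold change of 0.32, and 0.35 with the block, and Kmt2a 0.43 with the block (edgeR, adjusted p = 0.0170).

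The core subunits had values below 0 or near 0 in polysomes. Wdr5 was at 206, 216, 212 and 254 CPM in control and 168, 160, 176 and 214 CPM in RAM siRNA polysomes, lower in all 4 pairs, with a log2 fold change of -0.26 (SE 0.16; edgeR, adjusted p = 0.767). Rbbp5 was at 49.7 to 70.0 CPM in control and 41.3 to 63.6 CPM in RAM siRNA polysomes and was also lower in all 4 pairs (log2 fold change -0.22, SE 0.18; edgeR, adjusted p = 0.868). Ash2l was the third gene lower in all 4 pairs, a pattern held by 20.2% of all genes, and its log2 fold change of -0.09 turned to 0.04 without RAM siRNA replicate 2. Dpy30, called lower in input with and without the block, had a log2 fold change of -0.05 (SE 0.40; edgeR, adjusted p = 0.997) over libraries from 40.2 to 136 CPM. Without RAM siRNA replicate 1, RAM siRNA replicate 2 or control replicate 4 it was 0.09, 0.17 or 0.25. Kdm6a and Setd1a had 0.01 and 0.10, and without RAM siRNA replicate 2 they had -0.34 and -0.09. Kdm6a also turned to -0.08 and -0.11 without control replicates 3 and 4.

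The change in polysomes less that in input, the effect of RAM siRNA on polysome loading, was called for none of the 9 genes. None had an unadjusted p under 0.05 without a block, and with the block within each fraction 2 of the 9 did, against 637 of 12805 genes. Their values without a block lay between -0.17 for Rbbp5 and 0.52 for Kmt2a, with adjusted p of 0.9997 for each (edgeR). Across all genes 0 passed and 100 had an unadjusted p under 0.05, DESeq2 called 1, and a block within each fraction called 2 genes (0.0156%), none of them of this family. Loading of these transcripts was thus not shown to differ between the siRNA groups, and Kmt2d is outside this statement because it was not tested.

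Polysomes and input were then compared within each siRNA group, as a measure of how each transcript stood on polysomes relative to all others, since the scaling removes any change shared by all transcripts. Per the study's methods, input RNA was purified with Trizol, and polysome RNA with phenol and chloroform and then lithium chloride. Fraction and purification therefore cannot be told apart in these contrasts. The control and RAM siRNA values come from separate libraries, and Kmt2d, which shares them with the contrast that chose it, is again given without a test. In control cells 6 of the 9 genes were lower in polysomes and 1 was higher, where 34.3% and 33.1% of all genes were. Groups did not overlap for 7 of the 10 genes, against 61.0% of all genes, so the count of differences was near the background and the direction was mostly down. The median log2 fold change was -0.67 over the 10 genes, -0.49 over the 9 without Kmt2d and 0.00 over all genes.

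The long enzymes were the least represented on polysomes. The polysome mean of Kmt2a was 18.4% of its input mean in control cells, that of Kmt2d 18.6% and that of Kmt2c 25.7%, and no polysome library of these genes reached any input library of the group. Kmt2a had a log2 fold change of -2.48 (SE 0.37; edgeR, adjusted p = 0.000107) and Kmt2c of -1.99 (SE 0.29; edgeR, adjusted p = 0.000101). Kmt2d had a fitted value of -2.45 (SE 0.35). In RAM siRNA cells the percentages were 26.5% for Kmt2a, 36.4% for Kmt2c and 33.7% for Kmt2d, again below input in all 4 pairs. Kmt2a and Kmt2c passed there too, with log2 fold changes of -1.92 and -1.46 (edgeR, adjusted p = 0.00492 and 0.0127), and Kmt2d had -1.57 (SE 0.36).

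Kmt2b, whose transcript is shorter than those, did not pass in control cells (log2 fold change -0.39, SE 0.33; edgeR, adjusted p = 0.310). Its ratio of polysome to input ran from 0.382 in replicate 3 to 1.39 in replicate 2, and without control polysome replicate 2 the log2 fold change was -0.76 (edgeR, adjusted p = 0.0205). In RAM siRNA cells it was 0.01 (edgeR, adjusted p = 0.990) and turned to -0.75 (edgeR, adjusted p = 0.0284) without RAM siRNA polysome replicate 2. Leaving out RAM siRNA input replicate 4 also turned it, to -0.11. Setd1a was at 72.9% of input in control cells, with a log2 fold change of -0.49 (SE 0.14; edgeR, adjusted p = 0.00811). The same gene was at 71.6% in RAM siRNA cells, where -0.48 did not pass without the block (edgeR, adjusted p = 0.0694) and -0.51 did with it (adjusted p = 0.0427), as did -0.69 without RAM siRNA polysome replicate 2 (adjusted p = 0.00277).

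The core subunits did not move together between the fractions. Ash2l was the only gene of the family called higher than input, at 498, 414, 468 and 564 CPM in control polysomes against 321, 307, 284 and 330 CPM in control input, without overlap. Its log2 fold change was 0.61 (SE 0.13; edgeR, adjusted p = 0.00135), and in RAM siRNA cells 0.65 (SE 0.20; edgeR, adjusted p = 0.0209). The call in RAM siRNA cells was lost without RAM siRNA input replicate 1, 2 or 3 (edgeR, adjusted p = 0.0587 to 0.0659), with values of 0.60 to 0.64. Wdr5 was near parity, with polysome means of 101% and 94.3% of input in control and RAM siRNA cells and log2 fold changes of -0.01 and -0.07 (edgeR, adjusted p = 0.936 and 0.732), the first of which changed sign in 9 of 16 other settings.

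Rbbp5 and Dpy30, with short transcripts, were below input. Rbbp5 had 61.1, 70.0, 62.9 and 49.7 CPM in control polysomes against 105, 111, 111 and 102 CPM in control input, without overlap (log2 fold change -0.85, SE 0.12; edgeR, adjusted p = 8.54e-05). In RAM siRNA cells its value was -0.98 (SE 0.17; edgeR, adjusted p = 0.000926). Dpy30 had 60.7, 60.8, 76.3 and 136 CPM in control polysomes, all below the 167 to 192 CPM of control input, with replicate 4 the nearest. Its log2 fold change was -1.16 (SE 0.24; edgeR, adjusted p = 0.00124) in control and -0.86 (SE 0.32; edgeR, adjusted p = 0.0421) in RAM siRNA cells. The second call was lost without any of the 4 RAM siRNA input libraries or without RAM siRNA polysome replicate 1 or 3 (edgeR, adjusted p = 0.0625 to 0.114).

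Kdm6a was at 78.1% of input in control cells (log2 fold change -0.39, SE 0.16; edgeR, adjusted p = 0.0476), with polysome values of 67.4, 73.0, 45.1 and 45.5 CPM. Its groups overlapped, and the call was lost without any of the 4 control input libraries or without control polysome replicate 3 or 4 (edgeR, adjusted p = 0.0727 to 0.160). In RAM siRNA cells it was -0.30 (edgeR, adjusted p = 0.357), and it passed at -0.66 without RAM siRNA polysome replicate 2 (edgeR, adjusted p = 0.00308). Over the 9 genes, RAM siRNA cells gave 4 lower and 1 higher, where 25.9% and 27.3% of all genes were. With the block they gave 5 lower and 1 higher, where 29.9% and 28.8% were. Groups did not overlap for 6 of the 10 genes, against 46.6%.

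The ratio of polysome to input also differed by exon length over all genes. The median log2 ratio in control cells was 0.26 for 1967 genes under 2 kb, 0.37 from 2 to 4 kb, -0.07 from 4 to 8 kb, -0.41 from 8 to 12 kb and -0.79 for 726 genes of 12 kb and over. Kmt2a, with a mean log2 ratio of -2.59, Kmt2d with -2.48 and Kmt2c with -2.04 lay below the median of their length class, where 3.58%, 4.82% and 11.0% of the genes were lower. Rbbp5 and Dpy30 lay low among short genes, with 11.1% and 13.2% of their classes below them. Ash2l had 90.6% of the 8 to 12 kb class below it, while Kmt2b and Kdm6a were near the middle of that class, at 44.7% and 51.1%. The class of Ash2l rests on all its exons, and its longest annotated transcript has 3702 bases in 1 exon, a length at which the class median was 0.37. In RAM siRNA cells the same shares were 6.89% for Kmt2a, 14.6% for Kmt2d, 14.7% for Kmt2c, 8.47% for Rbbp5, 15.5% for Dpy30 and 91.5% for Ash2l.

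**Figure D4:**
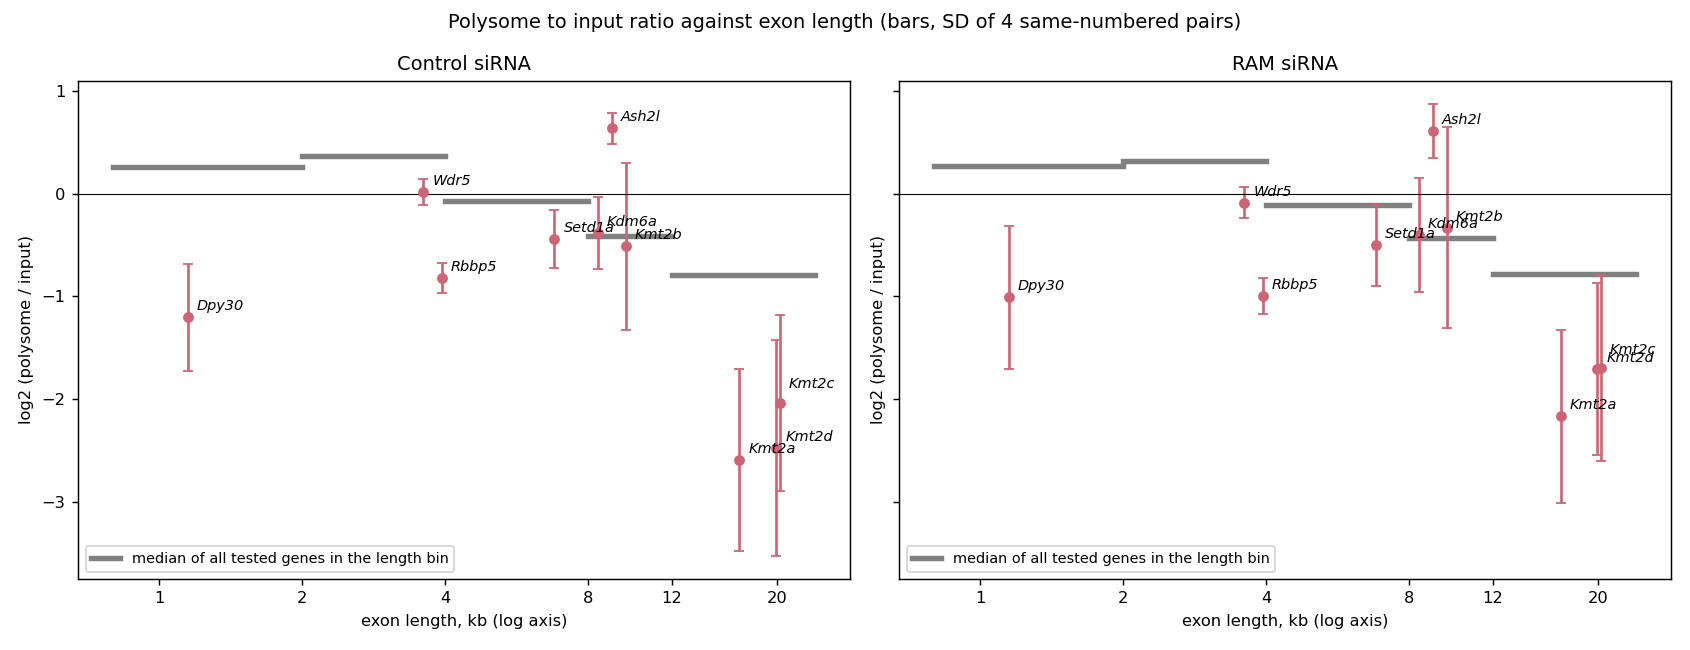
Mean log2 ratio of polysome to input CPM over 4 same-numbered pairs (bars, SD) against exon length in kb (log axis) for the 10 genes, in control (left) and RAM siRNA (right) cells, with grey lines for the median of all tested genes in each length class. Kmt2a, Kmt2c and Kmt2d lie below the line of genes of 12 kb and over, Rbbp5 and Dpy30 below those of short genes, and Ash2l above its line.

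The length trend itself differed between replicates. For genes of 12 kb and over, the median log2 ratio of polysome to input in control cells was -0.62, -0.41, -1.09 and -0.98 in replicates 1 to 4, and in RAM siRNA cells -0.74, -0.19, -1.14 and -1.09. Kmt2a followed this order in control cells, with ratios of polysome to input of 0.196, 0.358, 0.0875 and 0.107, and was closest to input in replicate 2. Dpy30 was closest to input in replicates 3 and 4, with 0.319, 0.339, 0.458 and 0.707, and the median log2 ratio of all genes under 2 kb was 0.11, -0.06, 0.38 and 0.53. The part of length in the results of each gene was not tested beyond the length offset given above.

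**Figure D5:**
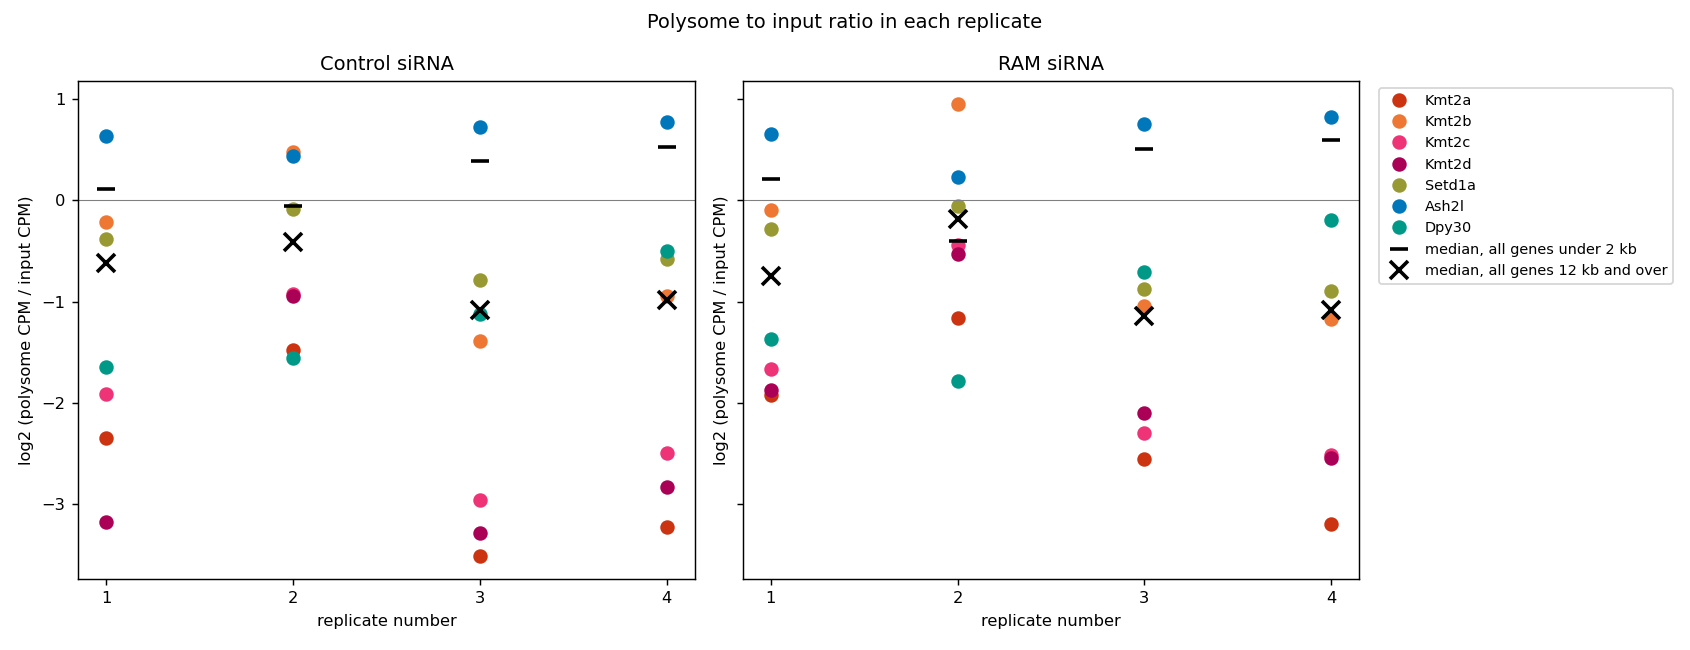
Log2 ratio of polysome to input CPM in each replicate for 7 of the 10 genes (colours) in control (left) and RAM siRNA (right) cells, with dashes for the median of all genes under 2 kb and crosses for that of genes of 12 kb and over. Replicate 2 has the highest ratios of Kmt2a, Kmt2b, Kmt2c and Kmt2d in both panels, and the dash is at its lowest there.

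The genes whose pattern over the 16 libraries was most like that of Kmt2d were also long. Among 9139 genes that averaged 10 CPM or more, Rnf213, Ubr4 and Gse1 had a Pearson r of 0.972 with Kmt2d in log2 CPM, and Fn1 had 0.968, with exon lengths of 10351 to 17997 bases. Rnf213 and Ubr4 encode giant ubiquitin ligases, and Fn1 encodes fibronectin. Of the family, Kmt2c ranked 21 with r = 0.957 and Kmt2a ranked 153 with r = 0.934, while Ash2l had r = -0.928. These values span both fractions and carry no p. Within the 8 polysome libraries Rnf213, Ubr4, Gse1 and Fn1 had an r of 0.856 to 0.932 with Kmt2d, and within the 8 input libraries of 0.627 to 0.806. Kmt2a had 0.779 in polysomes and 0.263 in input, and Kmt2c 0.861 and 0.655.

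The other genes of the pathway were listed by role. These 29 genes hold further complex subunits, H3K4 and H3K27 demethylases, other methyltransferases and the enhancer acetyltransferases Ep300 and Crebbp. The subunit gene Pagr1a had 0 counts in all libraries, and 28 genes were tested. Overlaps with other genes were examined only for the family, so 0 counts need not mean that Pagr1a had no transcripts. In input 0 were lower and 5 higher without the block, where 5.94% and 6.95% of all genes were. Of the 28 genes, 9 had an unadjusted p under 0.05 (edgeR), against 3591 of 12805 genes. With the block 3 were lower and 8 higher, where 19.0% and 20.3% of all genes were. The median log2 fold change of the 28 genes was 0.05.

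The genes called higher in input without the block were the subunits Men1 and Bod1, the demethylase Kdm1b and the methyltransferases Smyd1 and Smyd2. Men1, which encodes menin, the partner of KMT2A and KMT2B, was at 65.3, 75.9, 78.7 and 69.5 CPM in control and 95.2, 93.7, 94.0 and 91.0 CPM in RAM siRNA input, without overlap (log2 fold change 0.37, SE 0.07; edgeR, adjusted p = 0.00679). Smyd1, known from heart and skeletal muscle, had the largest value of the 5 at low levels, with 4.11 to 5.97 CPM in control and 5.94 to 9.22 CPM in RAM siRNA input (log2 fold change 0.71, SE 0.16; edgeR, adjusted p = 0.0146). Smyd2 had 0.48 (edgeR, adjusted p = 0.0383), a call that was lost without any of 6 of the 8 input libraries (adjusted p = 0.0561 to 0.0994), with values of 0.36 to 0.52. Bod1 had 0.25 and Kdm1b 0.33 (edgeR, adjusted p = 0.0422 and 0.0397). Men1, Bod1 and Kdm1b were named after their values were seen.

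With the block, Setd1b, the paralogue of Setd1a, was lower in input by a log2 fold change of -0.37 (edgeR, adjusted p = 0.0139). Psip1, which encodes LEDGF and tethers KMT2A complexes to chromatin, had -0.19 (adjusted p = 0.00175), and the demethylase Kdm5b had -0.14 (adjusted p = 0.0174). Without the block none of these 3 passed, and Psip1 did at an adjusted p of 0.0448 when RAM siRNA input replicate 4 was left out (edgeR). In polysomes the 28 genes gave no call without the block, with 1 at an unadjusted p under 0.05 (edgeR), against 1152 of 12805 genes. With the block 0 were lower and 4 higher, where 4.97% and 9.68% of all genes were. The largest of the 4 by fold were Smyd1 with 0.67 (edgeR, adjusted p = 0.0182) and the SET1 complex gene Bod1l with 0.55 (edgeR, adjusted p = 0.00635). Bod1l was at 28.1, 41.4, 15.2 and 9.89 CPM in control and 35.0, 76.1, 19.3 and 13.3 CPM in RAM siRNA polysomes, with replicate 2 highest in both groups as for the long enzymes, and its value without the block of 0.64 turned to -0.01 without RAM siRNA replicate 2.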

How the data were processed

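Per the labels and the study's methods, RNA depleted of ribosomal RNA was made into stranded libraries, and the authors aligned reads to GRCm38 with STAR 2.5.1b and assigned them to genes with htseq-count. The deposited values are raw counts per gene, not normalized. The annotation release and the strand and overlap settings are not given in the sources used here. Groups are the labelled combinations of fraction and siRNA. Depth was 16647523 to 20147833 counts per library.

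Counts were fitted in R 4.3.3 with edgeR 4.0.16 (quasi-likelihood test, TMM, Benjamini-Hochberg adjustment over all genes tested, threshold 0.05). Genes were kept that reached 1 CPM in 10 or more of 16 libraries. Each contrast used its own libraries, and polysome loading used all 16. The CPM shown were scaled over all 16 libraries, and log2 CPM used a pseudocount of 0.5. Gene lengths are from GENCODE M21, which held 46488 of 46983 gene IDs. Scripts were tested on simulated data.

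Replicate numbers mark separate occasions in the study's methods. Between the siRNA groups, libraries with the same number deviated together, with an r of 0.398 to 0.795 in input and 0.627 to 0.942 in polysomes over 9140 genes, and between input and polysomes of 0.234 to 0.568 in control and 0.296 to 0.709 in RAM siRNA cells, so the numbers pair the samples. The study's methods name no factor for the replicate, and the block was fitted as an alternative. The study's counts of lower and higher genes in input lay nearer those with the block (2433, 2595) than without (761, 890). P-values without the block measure the spread between these cultures of 1 cell line, and those with it the spread left within the occasions. Between fractions, the fit without the block took the input and polysome libraries of the same culture as independent.

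Alternatives were RLE and upper-quartile scaling, DESeq2 1.42.0, limma-voom (limma 3.58.1), other filters, the block, a culture factor, each library left out and, chosen after seeing the data, a length offset (lowess span 0.3). Fits with 1 library left out had no block and kept its same-numbered partner. The 10 genes and the lists were chosen with earlier results of these data known. Other pathway genes were named where they held one of the 3 largest called changes in each direction, where they had no counts, or as stated. Of the 5 genes most like Kmt2d, 1 is not reported here. No set test was run.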

Additional observations from a re-analysis of the deposited data

Results flagged for a closer look

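One of 40 sets of 4 libraries, each gene of the family in each group, had a library far from the other 3. Kmt2d in control polysomes stood at 17.1 CPM in replicate 2, against 5.31 to 6.71 CPM in the other replicates, and the gap was 0.881 of the whole range. The same replicate was the highest in RAM siRNA polysomes at 23.6 CPM. The cutoff was applied to all 40 sets without a correction for their number, and values of Kmt2d in these libraries chose the family. The flag is therefore a description only.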

How the results depend on the processing

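The numbers pair the samples, and the replicate block raised the counts of calls from 1651 to 5028 genes in input, with 3 genes of the family in place of 1, and from 3 to 1875 in polysomes, with 1 of the family in place of 0. The gene calls it changed are given beside the results, and it changed no other call of a family gene. With block and length offset the counts were 5205 (family 3) and 2576 (family 1). In polysomes DESeq2 called 300 genes, no filter 39, filterByExpr 18 and the length offset 66. For polysome loading DESeq2 called 1 gene, and the block within each fraction called 2, also with the length offset. Leaving out 1 library gave 913 to 2506 calls in input (family 1 to 2), 0 to 48 in polysomes (family 0), 0 for loading (family 0), 7877 to 8905 between fractions in control cells (family 6 to 8) and 5591 to 8584 in RAM siRNA cells (family 3 to 8). The lowest input count, 913, came without RAM siRNA replicate 1.

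Values near 0 changed sign. Kdm6a in polysomes was -0.06 with limma-voom, -0.03 with no filter, -0.01 with filterByExpr, -0.05 with the block and with the length offset and -0.07 with both. Between fractions in control cells Wdr5 was 0.01 with RLE and with DESeq2, 0.12 with no filter and 0.09 with filterByExpr, and Kmt2b was 0.03 with the length offset. In RAM siRNA cells Kmt2b was -0.03 with upper-quartile scaling and -0.33 with limma-voom and with the block, Wdr5 was 0.05 with no filter, and Kdm6a was 0.03 with the length offset. Leaving out 1 library, in fits without the block, moved Kmt2b from -0.03 to 0.20 and Kmt2c from -0.12 to 0.08 in input. In polysomes it moved Kmt2b from -0.24 to 0.89, Kmt2c from -0.12 to 0.89, Kmt2d from -0.07 to 1.01, Setd1a from -0.09 to 0.21, Ash2l from -0.25 to 0.04, Dpy30 from -0.44 to 0.25, Kdm6a from -0.34 to 0.15 and Bod1l from -0.01 to 1.06. Between fractions it moved Wdr5 from -0.09 to 0.04 in control and Kmt2b from -0.75 to 0.31 in RAM siRNA cells. The causes were not tested.

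Between fractions in control cells, the call of Kdm6a was also lost with RLE (adjusted p = 0.0644), DESeq2 (0.0607), both other filters (0.134 and 0.187) and the length offset (0.933), and that of Setd1a with no filter (0.0762) and the length offset (0.126). The call of Dpy30 in RAM siRNA cells was lost with filterByExpr (0.0514). Of 816 single values under another setting, 717 were classed as the same. For tested genes this meant the same direction and side of the threshold. For Kmt2d it meant the same direction and a shift smaller than the SD of its pairs. For levels per kb it meant a shift smaller than the SD of the libraries. The Dpy30 call in input held in all 17. Kmt2d had 98 to 412 counts per polysome library.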
